A study of Mus musculus with 5 samples.

Results

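The genes described here carry sugar through glycolysis, into and out of glycogen, and from fructose into the same chain. They comprise 36 of the 23361 gene symbols measured in the hippocampus, and *Khk* stands at the centre of the list. The list of 37 names was drawn up with earlier results of these libraries known. It was chosen from the difference between genotypes at *Khk*, to see whether other genes of sugar metabolism shared the decrease. The name *Pkm2* was not among the symbols, because the same gene is listed as *Pkm*, so 36 genes remained. All 36 passed the filter of a mean of 1 FPKM over the libraries, and none passed through 1 group alone, since the lowest group means were 1.23 FPKM in the controls and 1.14 FPKM in the mutants, both at *Hk2*. FPKM scales fragment numbers by transcript length and by library depth, so levels of different genes can be compared.

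RNA-seq was carried out on hippocampal tissue of mice aged 3 months. According to the study's methods the young animals were males. Controls were labelled Hdac1f/f (n = 2), and carried the floxed *Hdac1* allele without a recombinase. *Hdac1* cKO mice were labelled Hdac1f/f, Nestin-Cre (n = 3), and carried the same floxed allele plus the Cre transgene. HDAC1 takes acetyl marks off histone tails. Every mouse thus had the floxed allele, only the mutants had Cre, and an effect of Cre itself cannot be told apart from loss of *Hdac1*. The *Nestin* driver acts in neural precursors, and the study found HDAC1 lost from neurons and astrocytes but still detectable in microglia. The study counts its replicates in mice, so errors describe the spread between animals of a group.

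In glycolysis, hexokinase traps glucose in the cell, phosphofructokinase commits it, and the steps from aldolase to pyruvate kinase yield pyruvate and ATP. Lactate dehydrogenase turns pyruvate into lactate, pyruvate dehydrogenase sends it into mitochondria, and glycogen, held in the brain mostly by astrocytes, is the local store of glucose. Ketohexokinase, encoded by *Khk*, phosphorylates fructose and lets it enter below the phosphofructokinase step, outside the main control of the pathway. The polyol route, in which sorbitol dehydrogenase is the last enzyme, can make fructose from glucose inside cells.

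*Hdac1* itself stood at 8.95 and 13.1 FPKM in control libraries, against 1.95, 3.12 and 3.37 FPKM in cKO libraries, so every library matched its label. Depth was estimated at between 5120000 fragments, in cKO 2, and 6750000 fragments. The libraries fell into 2 technical sets that cross the genotypes, seen in shared steps of the lowest FPKM values. Control 1 and cKO 1 formed set 1, while control 2, cKO 2 and cKO 3 formed set 2, and the labels do not say what the sets are. Neuron and astrocyte markers were present in all libraries, with the synaptic gene *Snap25* at 749 to 903 FPKM and the astrocyte gene *Gfap* at 263 to 415 FPKM. *Ttr*, the defining marker of choroid plexus, a tissue beside the hippocampus, ranged from 1.33 FPKM in control 2 to 589 FPKM in cKO 2.

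*Khk* was lower in the *Hdac1* cKO hippocampus, and no other gene of the list differed by a comparable amount. *Khk* measured 5.22 and 5.45 FPKM in controls 1 and 2, against 3.39, 1.52 and 2.17 FPKM in cKO 1, 2 and 3. All 3 cKO libraries lay below both controls, with cKO 2 lowest and cKO 1 nearest to the controls. The group means were 5.34 ± 0.165 FPKM (SD, n = 2) and 2.36 ± 0.952 FPKM (SD, n = 3), so that the cKO mean was 44.3% of the control mean. On the log2(FPKM + 1) scale the fitted difference was -0.95 (SE 0.22, 95% interval -1.46 to -0.44). This value chose the list and is given as a description without a test. Within library set 1 the difference was -0.50 and within set 2 it was -1.19 on that scale.

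The *Khk* level rests on few fragments. An approximate conversion with the longest transcript of 1456 nt gave 51 and 52 fragments in control libraries, against 33, 11 and 20 fragments in cKO libraries. The lowest value and the lowest fragment number were both in cKO 2, which was also the shallowest library and the one with the most *Ttr*. Without cKO 2 the fitted difference was -0.76, and without cKO 1 it was -1.16. Among all 12740 genes tested, *Khk* had the 19th lowest fitted difference. In the mm9 annotation the gene (ENSMUSG00000029162.9) lies on chr5:31223929-31233619 on the plus strand. Its exons overlapped no other gene, and its coding sequence had no near-identical copy elsewhere in the genome.

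**Figure D1:**
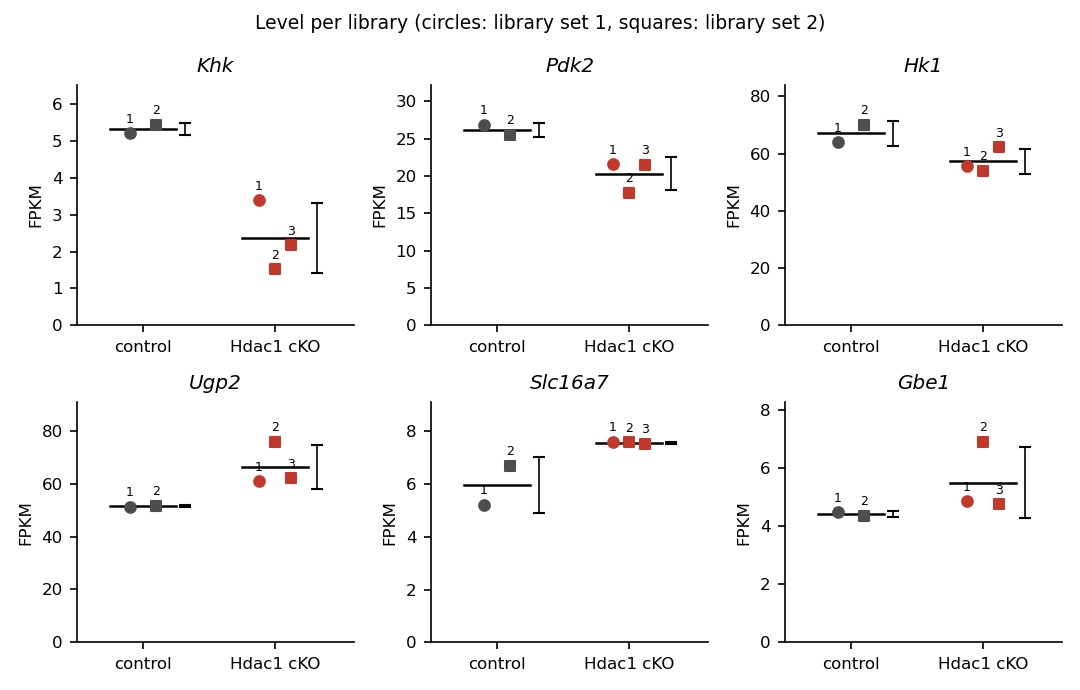
Level in FPKM (vertical axes, from 0) of *Khk*, *Pdk2*, *Hk1*, *Ugp2*, *Slc16a7* and *Gbe1* in the 2 control (grey) and 3 *Hdac1* cKO (red) libraries. Numbers are replicate numbers, circles are library set 1, squares are library set 2, horizontal lines are group means and bars are ± 1 SD. The 6 genes are drawn from the 10 on the list whose groups do not overlap. Over all genes tested such separation was seen in 9.41% (below) and 11.0% (above), and rescaling to a common total ended that of *Gbe1*. Library cKO 2 holds the lowest *Khk* value, 1.52 FPKM, and the highest *Ugp2* value, 75.7 FPKM.

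Promoter sequences are shown for *Khk*, the gene that defined the list, and for *Pdk2* and *Ugp2*, the members with the next lowest and the highest fitted difference. Each window runs from 250 bases before the RefSeq start site to 50 bases after it (GRCm38.p6, 300 bases, strand of the gene, first start site listed). Capitals mark the E-box CACGTG, and GGGCGG (or its reverse complement CCGCCC), a GC box. In *Ugp2*, which lacks CACGTG, the shorter ACGTG is in capitals instead. The *Khk* window is chr5:30921309-30921608 on the plus strand. The *Pdk2* window is chr11:95041322-95041621 and the *Ugp2* window is chr11:21371218-21371517, both on the minus strand.
Khk: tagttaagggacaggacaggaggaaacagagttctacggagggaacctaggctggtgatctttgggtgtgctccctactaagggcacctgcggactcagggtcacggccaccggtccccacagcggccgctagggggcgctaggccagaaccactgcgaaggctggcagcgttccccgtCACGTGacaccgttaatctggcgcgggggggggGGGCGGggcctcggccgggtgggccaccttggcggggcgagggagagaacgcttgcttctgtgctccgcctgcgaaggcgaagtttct
Pdk2: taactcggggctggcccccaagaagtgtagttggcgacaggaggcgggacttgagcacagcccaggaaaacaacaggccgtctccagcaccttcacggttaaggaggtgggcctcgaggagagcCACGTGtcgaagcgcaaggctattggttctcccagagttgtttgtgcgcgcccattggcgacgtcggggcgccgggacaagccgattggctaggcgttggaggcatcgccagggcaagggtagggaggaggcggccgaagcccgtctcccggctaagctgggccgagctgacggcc
Ugp2: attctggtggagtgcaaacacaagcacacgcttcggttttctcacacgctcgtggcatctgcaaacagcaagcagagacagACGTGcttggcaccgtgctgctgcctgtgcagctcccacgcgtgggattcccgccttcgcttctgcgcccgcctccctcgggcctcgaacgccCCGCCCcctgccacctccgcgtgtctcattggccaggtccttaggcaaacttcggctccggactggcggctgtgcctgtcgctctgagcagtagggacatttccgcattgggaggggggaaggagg

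The E-box began 71 bases before the *Khk* start site and 126 bases before that of *Pdk2*. It was also in windows of *Slc16a1*, *Pfkm*, *Pfkfb2*, *Pfkfb3* and *Ldha*. The fitted differences of these genes were 0.13, -0.10, 0.07, 0.15 and -0.0001 in that order. The GC box began 38 bases before the *Khk* start site, and in *Ugp2* the reverse complement began 76 bases before it, with ACGTG at 169 bases before it. Both strands were searched. RefSeq windows were found for 34 of the 36 genes, not for *Slc2a3* and *Slc16a7*, and these genes had 50 start sites. CACGTG was in 7 of the 50 windows (14%) against 7.15% of all 32851 windows in the table and 7.84% of the 21263 windows of protein-coding genes. ACGTG, which lies inside every CACGTG, was in 24 of them (48%) against 19.6% of all and 20.9% of coding windows. GGGCGG was in 29 (58%) against 35.7% and 46.2%. Several start sites of 1 gene share bases, so these shares describe the windows and nothing was tested on them. A match of letters is not a bound site.

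Beside *Khk*, the list held 1 gene of fructose metabolism. *Sord*, encoding the sorbitol dehydrogenase of the polyol route, measured 8.70 and 12.5 FPKM in control libraries, against 9.20, 14.1 and 11.1 FPKM in cKO libraries. The groups overlapped, and the fitted difference was 0.11 (95% interval -0.34 to 0.56). It was -0.13 without control 1 and 0.34 without control 2. The *Sord* coding sequence has 1 near-identical copy in the genome, so its FPKM may include or lose shared reads.

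Across the list the genotype differences were small and went both ways. The study called genes at a fold change of at least 1.5 and a p under 0.05, without saying whether p was adjusted. With p taken as unadjusted, *Khk* was the single member called, as lower, and 0 members were called as higher. Of all genes tested 0.259% were called lower, 0.4% higher and 0.659% in either direction (51 higher and 33 lower genes, or 43 and 51 after rescaling to a common total). At an unadjusted p under 0.05 without the fold threshold, *Khk* and *Pdk2* were lower and *Slc16a7* and *Ugp2* higher, against a background of 1.99% lower, 2.37% higher and 4.36% in all. No member passed a Benjamini-Hochberg adjusted p under 0.05 in limma, the lowest being 0.955, and 0.00785% of all genes (1 gene) did. The contrast was known when the list was made, so nothing is read from these counts.

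Of the 36 genes, 20 had a fitted difference below 0 and 16 above it, and 46.3% of all genes tested were below 0. After rescaling the libraries to a common total the split was 27 below and 9 above, with 62.6% of all genes below 0. The median difference was -0.0049 over the list and 0.01 over all genes. With 1 library left out, the list median ran from -0.089 (without control 1) to 0.068 (without control 2). Without *Khk*, differences ran from -0.36 (*Pdk2*) to 0.35 (*Ugp2*). The 95% interval lay wholly inside 1.5-fold in either direction for 31 of the other 35 genes. The exceptions were *Pdk2*, *Slc16a7*, *Gbe1* and *Ugp2*, and the lowest bound among the 35 was -0.63, at *Pdk2*, above the *Khk* estimate. The added pseudocount makes differences of genes at a few FPKM, such as *Hk2*, look smaller than they are.

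The cKO libraries lay wholly below the controls in 5 genes (*Khk*, *Hk1*, *Gpi1*, *Pdk2* and *Pgm2*) and wholly above them in 5 (*Slc16a1*, *Slc16a7*, *Pdhb*, *Gbe1* and *Ugp2*). Over all genes tested such separation was seen in 9.41% (below) and 11.0% (above). None of these 10 genes changed sign in any alternative run, but rescaling to a common total ended the separation of *Pdhb* and *Gbe1*.

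**Figure D2:**
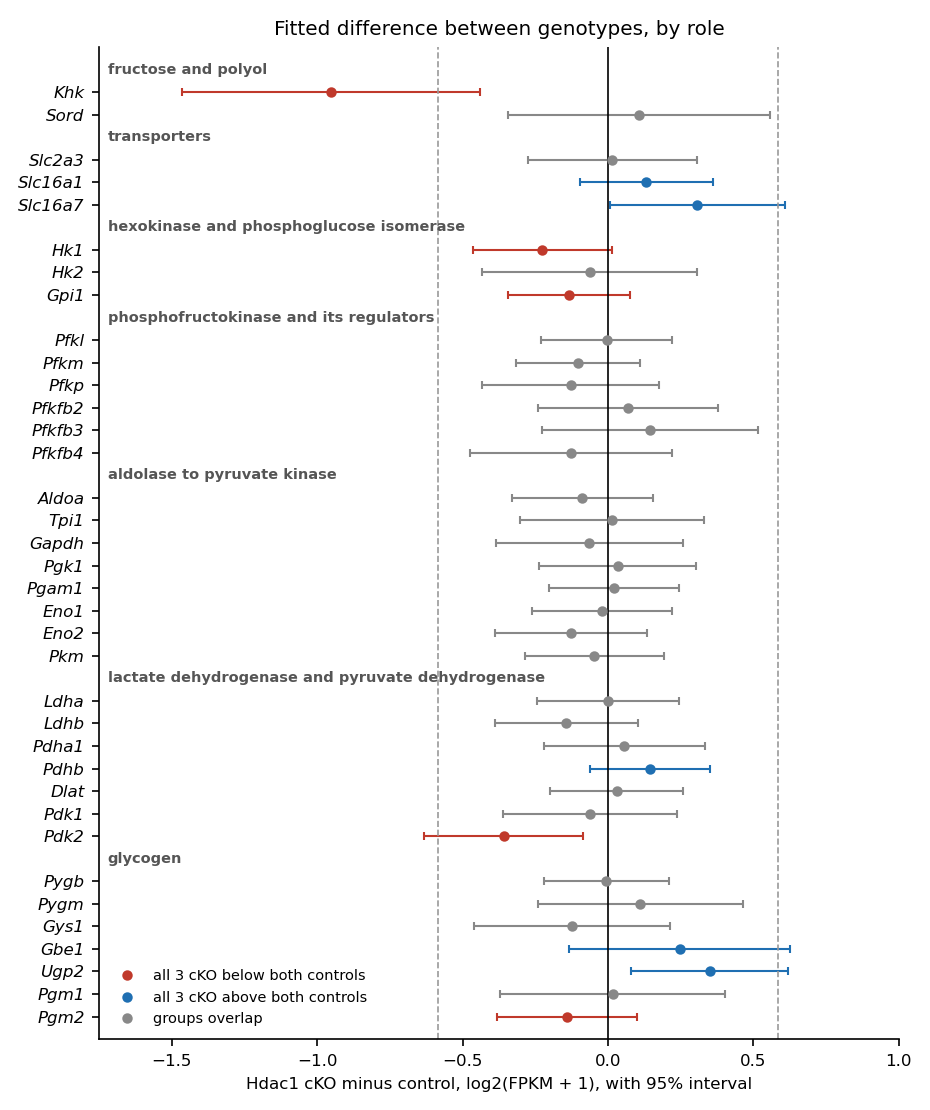
Fitted difference, *Hdac1* cKO minus control, on the log2(FPKM + 1) scale (horizontal axis) for the 36 genes grouped by role, with 95% intervals from limma over 2 control and 3 cKO libraries. Dashed lines are 1.5-fold, red marks genes with all cKO libraries below both controls, blue all above, grey overlap. Only the *Khk* point, at -0.95, lies beyond a dashed line.

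Of the 3 carriers on the list, *Slc16a7* and *Slc16a1* separated the groups and *Slc2a3* did not. *Slc16a7* encodes the monocarboxylate carrier MCT2, the main route for lactate and ketone bodies into neurons. It measured 5.22 and 6.70 FPKM in control libraries, against 7.59, 7.58 and 7.51 FPKM in cKO libraries. The cKO values were nearly equal and above both controls, with a fitted difference of 0.31 (SE 0.13). It was 0.15 without control 1 and 0.46 without control 2, and its unadjusted p was above 0.05 when any library but control 2 was left out. *Slc16a1*, encoding MCT1, a lactate carrier of glia and vessels, measured 15.5 and 14.9 FPKM against 17.2, 16.3 and 16.9 FPKM, a difference of 0.13 (SE 0.10). The groups were close but did not overlap. *Slc2a3*, encoding the neuronal glucose transporter GLUT3, overlapped between groups, with 29.8 ± 5.38 FPKM (SD, n = 2) in controls and 29.9 ± 1.56 FPKM (SD, n = 3) in cKO.

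Of the 3 genes of the first steps of glycolysis, *Hk1* and *Gpi1* separated the groups and *Hk2* did not. In the limma fit with genotype only, 0 had an unadjusted p under 0.05. With the library set added to the fit, *Hk1* (0.019) and *Gpi1* (0.041) did. *Hk1*, the hexokinase of brain, measured 64.0 and 70.1 FPKM in control libraries, against 55.6, 53.9 and 62.2 FPKM in cKO libraries. All cKO values lay below both controls, cKO 3 by the smallest margin, and the fitted difference was -0.23 (SE 0.10). Within the sets it was -0.20 and -0.27. *Hk2*, the hexokinase of muscle and growing cells, was near the filter of 1 FPKM in all libraries, at 0.954 to 1.34 FPKM. *Hk1* made up 97.9% to 98.3% of the summed FPKM of both. *Gpi1*, phosphoglucose isomerase, which makes fructose 6-phosphate, measured 151 and 160.1 FPKM against 137, 143 and 146 FPKM, a difference of -0.13 (SE 0.09) with no overlap. Its coding sequence has 1 near-identical copy. A gene on the opposite strand shares 157 nt of exon with *Hk1* and 741 nt with *Gpi1*, and likewise 603 nt with *Pdha1*, 398 nt with *Pgm2*, 372 nt with *Pfkp*, 310 nt with *Gys1*, 154 nt with *Pfkfb2* and 34 nt with *Tpi1*. Whether the counting used strand is not given in the sources used here, so reads of those partners could not be separated.

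Phosphofructokinase, the committing step, showed overlapping groups in every gene. *Pfkm*, the muscle-type subunit and the most abundant here, measured 109 and 116 FPKM in control libraries, against 101, 102 and 109.5 FPKM in cKO libraries. *Pfkl*, the liver-type subunit, stayed between 45.7 and 51.7 FPKM in the 5 libraries, and *Pfkp*, the platelet-type subunit, between 35.5 and 47.4 FPKM. Fitted differences were -0.10, 0.00 and -0.13 in that order. *Pfkfb2*, *Pfkfb3* and *Pfkfb4* encode the enzymes that set fructose 2,6-bisphosphate, the activator of phosphofructokinase. Their levels were 7.24 to 9.50, 2.94 to 4.19 and 2.61 to 3.68 FPKM, and their fitted differences were 0.07, 0.15 and -0.13, all within the spread between libraries.

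The steps from aldolase to pyruvate kinase held the most abundant transcripts of the list. *Aldoa*, an aldolase, measured 1138 and 1185 FPKM in control libraries, against 1077, 1047 and 1158 FPKM in cKO libraries. *Gapdh*, glyceraldehyde 3-phosphate dehydrogenase, measured 853 and 1053 FPKM against 799, 937 and 995 FPKM. Neither gene separated the groups, and *Gapdh* varied more between the controls than between the group means. Fitted differences of the 8 genes ran from -0.13 (*Eno2*) to 0.03 (*Pgk1*, phosphoglycerate kinase), 5 below 0 and 3 above. Between them lay *Tpi1* (triosephosphate isomerase, 0.01), *Pgam1* (phosphoglycerate mutase, 0.02), *Eno1* (the ubiquitous enolase, -0.02), *Pkm* (pyruvate kinase, -0.05), *Gapdh* (-0.06) and *Aldoa* (-0.09). Many of these genes have near-identical copies in the genome, 76 for *Gapdh*, 4 for *Pgk1*, 3 for *Eno1*, 2 for *Pgam1* and 1 each for *Tpi1* and *Pkm*, between which the authors' alignment could divide reads.

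The order of levels over the 5 libraries was *Aldoa* (mean 1121 FPKM), *Gapdh* (927), *Pkm* (395), *Tpi1* (330), *Pgk1* (303), *Pgam1* (281) and *Eno1* (254). *Aldoa* was above *Gapdh* in every library, whereas the ranges of *Tpi1* and *Pgk1* overlapped, as did those of *Pgk1* and *Pgam1*. In all, 13 genes were above a mean of 100 FPKM and 6 were under 5 FPKM, *Khk* among the latter at a mean of 3.55 FPKM, in place 32 of 36. The highest *Khk* library was 3.59 times the lowest, and the next widest range was that of *Sord*, at 1.62 times.

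**Figure D3:**
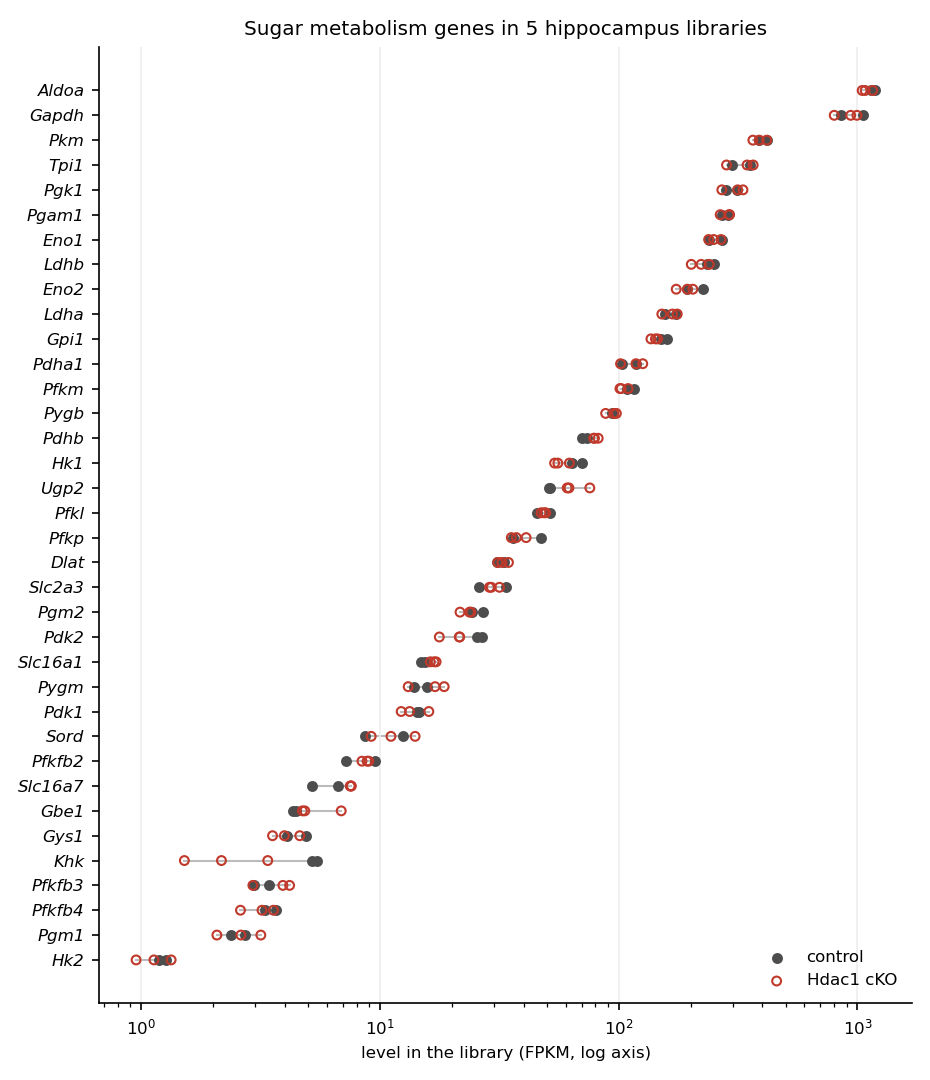
Level in FPKM (horizontal log axis) of the 36 genes in each of the 5 libraries, ordered by their mean, with controls as filled grey points and *Hdac1* cKO libraries as open red points. Grey lines join the lowest and highest library of a gene, and *Khk* spans 3.59 times against 1.62 times or less in every other gene.

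At the branch after pyruvate, *Pdk2* stood out among its neighbours. It encodes a pyruvate dehydrogenase kinase, which inhibits pyruvate dehydrogenase and so holds pyruvate back from mitochondria. *Pdk2* measured 26.9 and 25.5 FPKM in control libraries, against 21.6, 17.7 and 21.5 FPKM in cKO libraries. Every cKO value was below both controls and cKO 2 was lowest. The cKO mean was 77.4% of the control mean and the fitted difference was -0.36 (SE 0.12), with -0.30 within set 1 and -0.37 within set 2. It stayed between -0.41 and -0.27 when any library was left out, and its unadjusted p was above 0.05 without control 1. The annotation placed *Pdk2* on chr11:94887572-94902668 (mm9, minus strand), with no overlapping exon and no coding copy.

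*Pdhb*, a subunit of pyruvate dehydrogenase itself, went the other way, with 70.6 and 74.1 FPKM in control libraries, against 78.7, 82.1 and 79.2 FPKM in cKO libraries. The groups did not overlap, and the difference was 0.14 (SE 0.09). *Pdhb* has 1 near-identical copy, as has *Ldhb*, and *Ldha* has 4. The other subunits overlapped between groups, *Pdha1* at 102 to 126 FPKM and *Dlat* at 30.9 to 34.6 FPKM, with differences of 0.06 and 0.03. *Pdk1*, a second kinase of the complex, also overlapped (14.6 and 14.4 FPKM against 12.3, 16.0 and 13.3 FPKM). *Ldha*, the subunit favoured in tissues that export lactate, ranged from 152 to 176 FPKM without a difference between groups (0.00). *Ldhb*, the subunit favoured in tissues that use lactate, measured 235 and 251 FPKM against 201, 222 and 239 FPKM, a difference of -0.14 (SE 0.11) with overlap.

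Shares of paired isozymes are ratios within a library, so the scaling of a library cancels. *Ldhb* made up 60.2% and 59.0% of the summed *Ldha* and *Ldhb* FPKM in control libraries, against 57.1%, 56.9% and 57.6% in the cKO libraries. Every cKO library was below both controls, the means being 59.6% ± 0.824 (SD, n = 2) and 57.2% ± 0.407 (SD, n = 3). *Eno2*, the neuronal enolase, made up 44.6% and 45.2% of the summed *Eno1* and *Eno2* FPKM in control libraries, against 42.2%, 43.7% and 43.3% in the cKO libraries, again without overlap. *Pfkl* made up 24.0% and 24.1% of the phosphofructokinase FPKM in control libraries, against 26.6%, 25.3% and 24.4% in cKO libraries. The last of these was only just above the controls. *Pygm* took 12.9% and 14.3% of glycogen phosphorylase FPKM in control libraries, against 13.0%, 16.3% and 14.8% in cKO libraries, with overlap. In all, 8 steps were compared, and 3 of them held a share that separated the groups. The hexokinase, PFKFB, glycogen phosphorylase, phosphoglucomutase and aldolase shares overlapped, for example *Aldoc* with 47.6% and 46.8% in control libraries, against 48.2%, 48.6% and 47.3% in cKO libraries. For single genes such separation was seen in 9.41% (below) and 11.0% (above) of all tested, no share was computed for ratios, and nothing is read from the count.

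**Figure D4:**
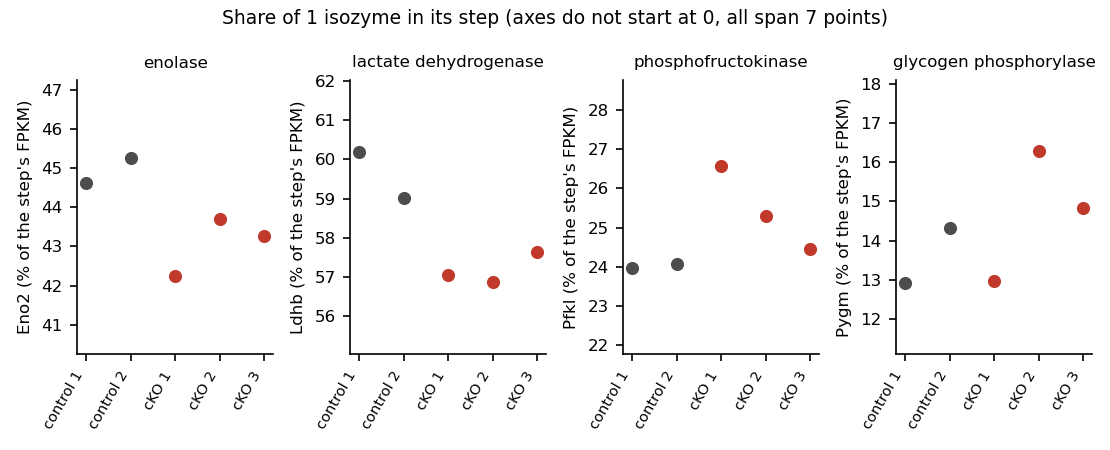
Share of an isozyme in the summed FPKM of its step, in percent (vertical axes span 7 points and do not start at 0), in each of the 2 control (grey) and 3 *Hdac1* cKO (red) libraries. The *Eno2* share (42.2% to 43.7% in cKO) and the *Ldhb* share (56.9% to 57.6% in cKO) lie below both controls in every cKO library, the *Pfkl* share lies above them, and the *Pygm* share overlaps, as do the shares of the 4 steps not drawn.

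Most neuron markers lay on the same side of 0 as *Eno2*, itself 1 of them. Of 15 neuron markers 14 had a fitted difference below 0, against 46.3% of all genes tested, with a median of -0.13. An unadjusted p under 0.05 was seen in 3, all lower (*Nefm*, *Stmn2* and *Syn1*), against 1.99% of all genes. The lowest adjusted p of the 15 was 0.955 in limma. Their summed level was 3035 and 3306 FPKM in control libraries, against 3014, 2876 and 3193 FPKM in cKO libraries, and no marker was at 0. Of 15 astrocyte markers 10 were above 0 (median 0.01), or 7 after rescaling to a common total (median -0.06). The cKO libraries lay wholly above both controls in 7 of the 15 and wholly below in 0, against 11.0% and 9.41% of all genes tested. In neuron markers these counts were 1 above and 4 below, and in oligodendrocyte markers 2 and 0. Endothelial and microglia markers each had 0 above and 1 below. *Aqp4*, the water channel of astrocytes, stood at 173% of the control mean, with an adjusted p of 0.175 in limma, 0.0187 with the set block and 0.0249 with the replicate block. *Gfap* stood at 134%, with an unadjusted p under 0.05 as well. The summed level of the astrocyte markers was 5246 and 5080 FPKM against 5409, 5420 and 5507 FPKM. Of 10 oligodendrocyte markers 9 were above 0 (median 0.12), or 7 after rescaling to a common total (median 0.06) and 6 with the replicate block (median 0.01), of 10 endothelial markers 8 were below (median -0.13), and of 10 microglia markers 5 were below (median -0.01). In tissue of mixed cells, fewer cells of a type cannot be told apart from less RNA per cell, and the part of cell makeup in the isozyme shares was not tested.

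Glycogen genes were led by *Ugp2*, which encodes the pyrophosphorylase that makes UDP-glucose, the building block of glycogen. *Ugp2* measured 51.2 and 51.7 FPKM in control libraries, against 60.9, 75.7 and 61.9 FPKM in cKO libraries. All cKO values were above both controls, with cKO 2 well above the other two. The cKO mean was 129% of the control mean and the fitted difference was 0.35 (SE 0.12), with 0.24 within set 1 and 0.40 within set 2. Without cKO 2 it was 0.25, and its unadjusted p was above 0.05 when either control was left out. *Ugp2* lies on chr11:21221141-21271204 (mm9, minus strand) and shares 78 nt of exon with a gene on the opposite strand.

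*Gbe1*, the branching enzyme of glycogen, was likewise highest in cKO 2, with 4.48 and 4.35 FPKM in control libraries, against 4.85, 6.89 and 4.74 FPKM in cKO libraries. The other cKO libraries lay just above the controls. The fitted difference was 0.25 (SE 0.17) and it was 0.10 without cKO 2. In cKO 2 the summed level of 10 choroid plexus markers was 693 FPKM, against 54.7 to 228 FPKM in the other libraries, and *Ttr* made up most of it. The part of that tissue in the *Khk*, *Ugp2* and *Gbe1* values of cKO 2 was not tested. In cKO 3, with a choroid plexus sum of 92.8 FPKM, *Khk* was 40.7%, *Ugp2* 120% and *Gbe1* 107% of the control mean. In cKO 1, with a sum of 131 FPKM, they were 63.6%, 118% and 110% of it.

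The other glycogen genes overlapped between groups or nearly so. *Gys1*, the glycogen synthase of brain and muscle, measured 4.90 and 4.10 FPKM against 4.62, 3.98 and 3.55 FPKM (difference -0.12). *Pygb*, the brain-type glycogen phosphorylase that releases glucose units, was among the steadiest genes, at 88.2 to 97.8 FPKM (difference -0.01). *Pygm*, the muscle-type phosphorylase, ranged from 13.1 to 18.6 FPKM (0.11). *Pgm1* and *Pgm2*, phosphoglucomutases whose symbols were exchanged in later annotations, are named as in the files. *Pgm2*, on chromosome 4 in mm9, measured 24.4 and 26.9 FPKM against 21.7, 24.0 and 23.8 FPKM, just without overlap (-0.14), and shares 398 nt of exon with a gene on the opposite strand. *Pgm1*, on chromosome 5, stayed at 2.08 to 3.17 FPKM (0.02).

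Genes of the same pathways that were not on the list gave a similar picture. Of 127 further names 120 were among the symbols and 93 were tested, 46 above 0 and 47 below, with a median of -0.0023 and 0 called. At an unadjusted p under 0.05 there were 2 genes above 0 and 2 below, 4.3% of the 93 against 4.36% of all genes tested. The lowest adjusted p was 0.955 (limma, Benjamini-Hochberg), so the 4 are given by their values only. *Slc2a1*, encoding the glucose transporter GLUT1 of vessels and astrocytes, measured 24.8 and 25.3 FPKM against 20.5, 18.8 and 22.7 FPKM (-0.27, SE 0.11). Endothelial markers, 8 of 10 below 0, leaned the same way, and their part in it was not tested. *Slc2a8*, encoding the intracellular hexose transporter GLUT8, measured 7.53 and 5.66 FPKM against 4.95, 4.35 and 5.34 FPKM (-0.36, SE 0.15). *Pgm5*, a relative of the phosphoglucomutases without known enzyme activity, had a difference of 0.44 (SE 0.15). *Mpc2*, a subunit of the mitochondrial pyruvate carrier, measured 167 and 163 FPKM against 207, 185 and 189 FPKM (0.23, SE 0.10). The groups did not overlap in these 4, and over the 93 genes separation was seen in 12 below (12.9%) and 12 above (12.9%), against 9.41% and 11.0% of all genes.

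By list, 9 of 12 tested fructose and polyol genes and 11 of 14 other glycolysis genes were below 0, with medians of -0.04 and -0.12. Of 9 pyruvate dehydrogenase genes 8 were above 0 (median 0.08), and of 21 other glycogen genes 11 were. The pentose phosphate pathway (6 of 9 above 0), the tricarboxylic acid cycle (12 of 21) and other glucose and lactate carriers (3 of 7) had medians of 0.01, 0.04 and -0.0023. After rescaling to a common total, which put 62.6% of all genes below 0, genes above 0 numbered 3 of 9 in the pentose phosphate pathway, 7 of 21 in the tricarboxylic acid cycle, 7 of 21 among other glycogen genes, 6 of 9 among pyruvate dehydrogenase genes (median 0.02) and 1 of 7 among other carriers. Fructose and polyol genes then had 10 of 12 below 0, and other glycolysis genes 13 of 14. No gene in these lists was called.

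The library sets gave a contrast that the choice of genes had not used. With genotype and set in 1 limma fit, 31 of the 36 genes were higher in set 2, against 59.4% of all genes tested, and the median difference was 0.12 against 0.05. At an unadjusted p under 0.05, 9 genes were higher in set 2 and 0 lower, against 14.2% and 8.67% of all genes. After adjustment 0 members passed in limma, against 3.09% of all genes. The 9 were *Sord* (0.43), *Pygm* (0.31), *Tpi1* (0.29), *Gapdh* (0.29), *Pfkp* (0.24), *Pdha1* (0.23), *Pgk1* (0.21), *Eno2* (0.20) and *Ldha* (0.17). *Khk* had a fitted set difference of -0.34 (SE 0.19, unadjusted p 0.12 in limma). It came from the cKO libraries, with 3.39 FPKM in set 1 and 1.52 and 2.17 FPKM in set 2. The controls were at 5.22 FPKM in set 1 and 5.45 FPKM in set 2. The count of 9 was 17 after rescaling to a common total and 0 with the fold threshold of 1.5, and it was 5 without either control, 3 without cKO 1 and 14 without cKO 2.

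All 8 genes from aldolase to pyruvate kinase were higher in set 2. Their summed level was 3662 FPKM in control 1 and 3473 FPKM in cKO 1, against 4110, 3765 and 4031 FPKM in control 2, cKO 2 and cKO 3. Within each set every cKO library was below its control, and pooled over sets the groups overlapped. For *Gapdh*, often used as a reference gene, the set difference was 0.29 and the genotype difference -0.11 in that fit.

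**Figure D5:**
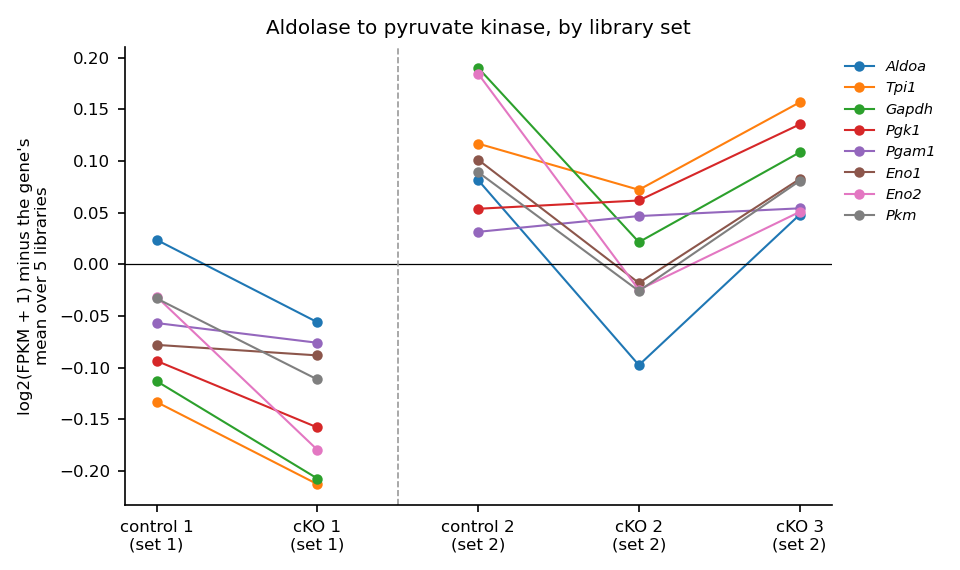
Level of 8 glycolytic genes on the log2(FPKM + 1) scale minus each gene's own mean over the 5 libraries (vertical axis), with libraries ordered by technical set and lines joining the libraries of a set to guide the eye. All 8 genes have a higher mean in set 2 than in set 1 at equal genotype, by 0.04 (*Aldoa*) to 0.29 (*Tpi1*) in the fit.

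With the set as a block in the genotype fit, 6 members were lower and 2 higher at an unadjusted p under 0.05, against 4.02% and 5.32% of all genes. *Eno2* (-0.16), *Hk1* (-0.24), *Ldhb* (-0.17) and *Gpi1* (-0.15) joined *Khk* (-0.90) and *Pdk2* (-0.34) on the lower side, and *Slc16a7* (0.29) and *Ugp2* (0.33) were higher. With the replicate number as a block, cKO 3 has no control of its number and drops out of the estimate, and 5 members were lower and 2 higher against 5.31% and 5.91%. *Gpi1* was not among the 5. The lowest adjusted p among members was 0.411 with the set and 0.292 with the replicate number (limma), so none passed in either fit. These counts are of the contrast that chose the list, *Khk* included, and nothing is read from them.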

How the data were processed

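Gene levels were taken from 5 deposited tables, 1 per library (2 control, 3 *Hdac1* cKO), with groups and replicate numbers from the sample titles. The authors made TruSeq total RNA libraries, sequenced them on a HiSeq instrument, aligned reads with Tophat2 and computed the deposited FPKM values with Cufflinks 2.0.0 and mm9 annotation. FPKM are not counts. The 12740 genes that averaged 1 FPKM or more were tested with limma 3.58.1 in R 4.3.3 (lmFit, eBayes with trend) on log2(FPKM + 1), two-sided, with Benjamini-Hochberg adjustment over all tested genes, a script first tested on simulated data. The study's thresholds, fold change 1.5 and P 0.05, defined a call, with P taken here as unadjusted, and the study does not name its test. Library sets came from genes under 0.3 FPKM, where 2 libraries of a set shared over 10% of ratios within 0.05 log2 units. Depth was read from the step of 1 fragment and is approximate. No read totals were used, so no counting interval is given. Coordinates and overlaps are from GENCODE vM1 (NCBIM37, equal to mm9), copies from BLAST 2.17.0 (95% identity over 200 nt), promoters from RefSeq GRCm38.p6. Any member could be named, with full values for *Khk*, members without overlap and the leading isozyme of a step, and from other lists the genes at an unadjusted p under 0.05. Members, lists and rules were chosen with earlier results of these data known. Alternatives were other pseudocounts (0.1, 0.5), filters, scalings, blocks, thresholds and leaving out each library.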

Additional observations from a re-analysis of the deposited data

How the results depend on the processing

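*Khk* was lower in every alternative that fitted it, by -1.21 (pseudocount 0.1) to -0.76 (without cKO 2), and with libraries left out in turn the range was -1.16 to -0.76. The *Khk* difference in these libraries chose the list, so these refits describe it and do not test it. A minimum mean of 5 FPKM removed *Khk* from the fit, which left 0 members called. With an unadjusted p under 0.05 alone 4 members and 4 other pathway genes were called, and 0 members with an adjusted p. Over all genes 84 calls became 142 with a pseudocount of 0.1, 43 with the minimum of 5 FPKM, 133 with the replicate block, 555 by p alone and 1 by adjusted p, and ranged from 92 to 234 with a library left out. The 9 members that differed between library sets became 17 after rescaling to a common total, 0 with the fold threshold, 0 by adjusted p, and 3 to 14 with a library left out. Among the 35 members other than *Khk*, 0 to 9 changed the sign of their difference, depending on the alternative. Their signs depend on scaling, since rescaling to a common total moved the median of all genes to -0.04 and that of the members to -0.07 and changed 7 signs. In the replicate block cKO 3 drops out. Deviations from the group mean correlated at 0.40 and 0.27 between libraries of the same number, over 2 pairs whose numbers also follow the library sets, so the numbers are not shown to pair animals. Depth limits *Khk*, with 11 to 52 estimated fragments, and also *Hk2* and *Pgm1*, which had fewer than *Khk* in both controls.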
